A study of Mus musculus with 2 samples.

Results

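Ccl2, Ccl7, Ccl8 and Ccl12 encode the mouse CC chemokines of the monocyte chemoattractant protein family, ligands grouped around the receptor Ccr2. They were taken by symbol and are 4 of the 31054 features counted in 2 single-cell libraries. Each library held cells sorted by flow cytometry for mCherry, a red fluorescent protein, from pooled mouse tumours labelled d7. The adult library came from mice 24 weeks old and the young library from mice 4 weeks old. The labels used here name no strain, no tumour and no carrier of the mCherry gene. Both groups carry the same labels for tissue, sort and day, and each age is 1 library with no replicate. No test of age was possible, and every interval below is a 95% interval that covers counting error only.

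CC chemokines are small secreted proteins with a pair of adjacent cysteines that signal through G protein-coupled receptors on leukocytes. Ccr2 draws inflammatory monocytes out of the bone marrow and into inflamed tissue and tumours, and Ccl2 and Ccl7 are the ligands best known for this. Ccl12 is a mouse ligand of Ccr2 with no direct human counterpart, and mouse Ccl8 is known for signalling through Ccr8. Macrophages and monocytes are common sources of all 4, and tumour cells and fibroblasts can make Ccl2 and Ccl7.

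The genes lie in a row on the plus strand of chromosome 11 in GRCm38, the assembly behind the mm10 build named in the submitters' processing notes, by the GENCODE M21 annotation. Ccl2 spans chr11:82035571-82037453, Ccl7 chr11:82045712-82047525, Ccl12 chr11:82101845-82103400 and Ccl8 chr11:82115185-82116799. Each has 3 exons, the whole row covers 81229 bases, and 1 other gene, Ccl11, stands within it. To show how alike the members are, 60 coding bases of each transcript around the codons of the paired cysteines are given below, 5′ to 3′, with those codons in capitals. Each window joins 2 exons.
Ccl2: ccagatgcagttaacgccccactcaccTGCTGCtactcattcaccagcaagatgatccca
Ccl7: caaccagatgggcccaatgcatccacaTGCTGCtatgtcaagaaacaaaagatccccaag
Ccl12: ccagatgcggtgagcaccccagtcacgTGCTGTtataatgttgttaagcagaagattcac
Ccl8: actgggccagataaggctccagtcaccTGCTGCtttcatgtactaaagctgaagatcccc
Over their aligned coding sequences the 6 pairs of genes were 68.8% to 72.1% identical. The longest run of bases shared by a pair of transcripts was 23, between Ccl2 and Ccl7, and the other 5 pairs shared at most 17. Ccl2 overlaps the antisense gene Gm17268, which had 0 UMIs in every class of cells in both libraries.

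RefSeq promoter entries on GRCm38.p6 matched 2 of the 4 members, Ccl12 at chr11:82101595-82101894 and Ccl8 at chr11:82114935-82115234. They are shown because these neighbouring genes differed widely in level. Each runs from 250 bases before the start of the gene to 50 after it on the plus strand, and the capitals mark TATAAA.
Ccl12: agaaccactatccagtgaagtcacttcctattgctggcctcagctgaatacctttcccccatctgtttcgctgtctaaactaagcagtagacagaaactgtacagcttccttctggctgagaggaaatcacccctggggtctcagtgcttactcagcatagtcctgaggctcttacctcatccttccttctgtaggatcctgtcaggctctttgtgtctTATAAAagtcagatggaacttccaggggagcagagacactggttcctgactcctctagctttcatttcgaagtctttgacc
Ccl8: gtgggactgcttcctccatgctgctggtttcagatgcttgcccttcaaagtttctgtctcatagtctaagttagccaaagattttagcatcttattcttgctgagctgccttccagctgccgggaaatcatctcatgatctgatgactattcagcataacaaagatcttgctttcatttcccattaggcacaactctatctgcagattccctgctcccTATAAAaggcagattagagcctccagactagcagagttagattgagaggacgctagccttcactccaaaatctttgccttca
TATAAA began at -31 from the start of Ccl12 and at -32 from that of Ccl8, and 13.6% of the 32851 promoter entries of this length hold these letters on either strand. Neither window held the AP-1 motif TGANTCA, the interferon response motif (GAAA, any 2 bases, GAAA) or the NF-kB motif on either strand. Those are held by 7.81%, 3.44% and 8.46% of all entries.

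The adult library kept 5774 of 6279 barcodes and the young library 7090 of 7558, with median unique molecular identifiers (UMIs, each a count of 1 captured RNA) per cell of 9660 and 9842. Cells were classed by rule. Csf1r cells had at least 1 UMI of Csf1r, the receptor that marks monocytes and macrophages, and under 2 of mCherry, and numbered 4265 adult and 5390 young cells. mCherry cells had at least 10 mCherry UMIs (476 adult and 423 young cells), neutrophils had at least 1% of their UMIs from S100a8 and S100a9 and at most 1 Csf1r UMI (189 and 116), and T cells had at least 2 UMIs of Cd3 genes (122 and 65). CPM is the UMIs of a gene per 1000000 UMIs of the class. All 8 listed macrophage and monocyte markers, among them Csf1r itself, stood at 10 CPM or more in the Csf1r class of both libraries. All 8 also did in the T cell class and 7 in mCherry cells, so this bar does not tell the classes apart. In Csf1r cells none of the 8 T cell markers reached it. Of 7 neutrophil markers 5 did in adult and 3 in young Csf1r cells. So did 1 endothelial marker in each library and 1 dendritic cell marker in young cells. The 5 fibroblast markers summed to 7.14 CPM in adult and 1.56 CPM in young Csf1r cells, and to 174 and 122 CPM in mCherry cells. The 2 files shared 111 barcodes.

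Csf1r cells, 73.9% of adult and 76.0% of young cells, held most of the RNA of all 4 genes. They contained 80.8% of the Ccl2 UMIs of adult cells and 79.4% of those of young cells, 88.1% and 84.2% of the Ccl7 UMIs, 90.2% and 87.3% of the Ccl12 UMIs, and 93.8% and 79.4% of the Ccl8 UMIs. Within them Ccl2 was the most abundant in both libraries, at 1407 CPM in adult cells (95% Poisson interval 1396 to 1418) and 1049 CPM in young cells (1041 to 1057). Ccl7 had 942 CPM (934 to 951) in adult cells and 801 CPM (794 to 808) in young cells. Ccl12 had 786 CPM (778 to 794) in adult cells and 843 CPM (835 to 850) in young cells, so it ranked below Ccl7 in the adult library and above it in the young one. Ccl8 was the lowest in both, at 113 CPM (110 to 116) in adult cells and 97.5 CPM (94.98 to 100.03) in young cells. Cells that met no class rule had more Ccl2 than Csf1r cells, at 1766 CPM in adult and 1290 CPM in young cells. The counts are of 3′ ends, so CPM is not divided by transcript length.

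**Figure D1:**
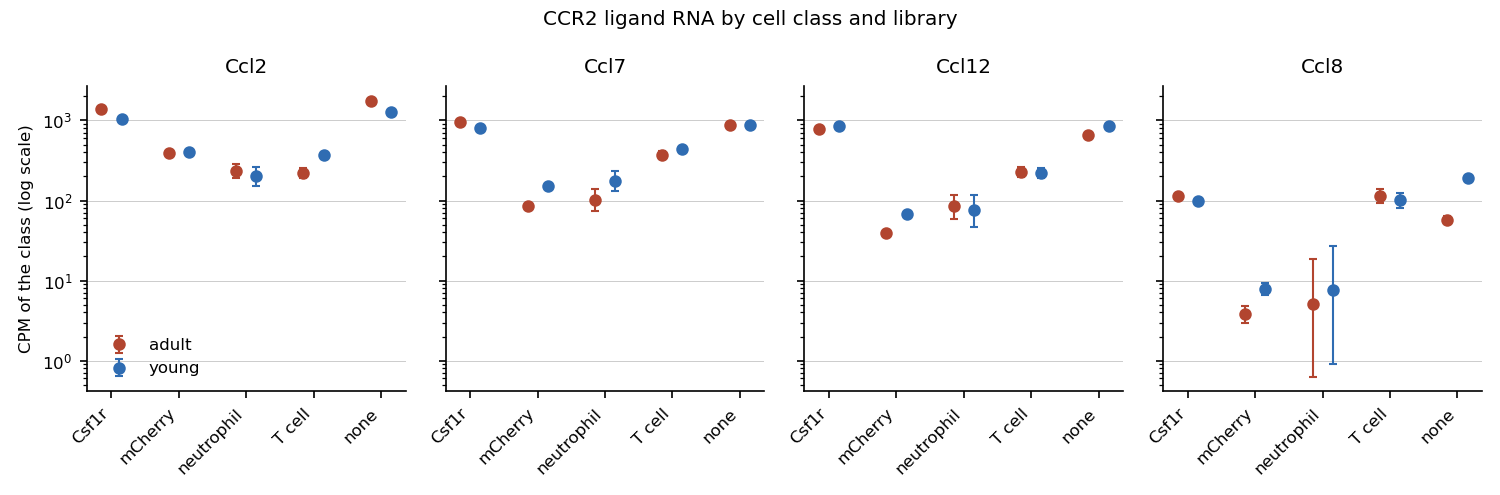
CPM (log scale) of Ccl2, Ccl7, Ccl12 and Ccl8 in each class of cells, adult left of young, with 95% Poisson intervals of counting error. For Ccl2, Ccl7 and Ccl12 the Csf1r cells and the cells that met no class rule are highest, and for Ccl8 the T cell class, where 1 adult cell holds 98.0% of the UMIs, is level with the Csf1r cells.

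Between the ages, Ccl2 and Ccl7 were modestly higher and Ccl12 slightly lower in adult Csf1r cells. The ratio of adult over young CPM was 1.34 for Ccl2 (1.33 to 1.36), 1.18 for Ccl7 (1.16 to 1.19), 1.16 for Ccl8 (1.12 to 1.204) and 0.933 for Ccl12 (0.920 to 0.945). None of the 4 passed 1.5-fold with an interval that excludes 1, the size counted here as higher or lower. Of all 6485 genes at 10 CPM or more in either library, 2.5% were higher and 3.39% lower by that measure, and the median log2 ratio of all of them was -0.05. The excess of Ccl8 rested on 1 adult cell with 832 Ccl8 UMIs, and without the highest cell of each library the ratio was 1.02 (chosen after seeing the data). The stress genes Hspa1a, at 136 CPM in adult and 58.3 CPM in young cells, and Hspa1b, at 43.6 and 16.2 CPM, were the 2 of 10 immediate early and dissociation genes that were higher in adult cells. Within bins of that list the ratio was 1.34 for Ccl2, 1.17 for Ccl7 and 0.937 for Ccl12, and 0.964 for Ccl8. Within bins of some gene lists the directions of Ccl8 and Ccl12 turned, and within others they held, as described below.

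The higher adult levels came with no larger share of positive cells. Ccl2 was detected in 74.6% of adult and 75.2% of young Csf1r cells, Ccl7 in 50.8% and 57.3%, Ccl12 in 59.4% and 68.4%, and Ccl8 in 7.48% and 9.59%. With every cell thinned to 2000 UMIs the shares were 48.6% in adult and 50.8% in young cells for Ccl2, 30.3% and 34.4% for Ccl7, 34.1% and 41.6% for Ccl12, and 3.06% and 4.30% for Ccl8, after leaving out 55 adult and 117 young cells that were shallower. All 4 shares were thus lower in the adult library at equal depth, although the CPM of 3 of the 4 was higher there. For Ccl2 the intervals of the thinned shares overlapped, at 47.1% to 50.2% in adult and 49.5% to 52.2% in young cells.

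A minority of cells carried most of each RNA. The adult Csf1r cell with the most Ccl2 had 403 UMIs and the young one 255, against medians of 2 and 3. The 10% of cells with the most Ccl2 held 63.4% of its UMIs in adult cells and 54.1% in young cells. The same share was 79.5% and 70.1% for Ccl7 and 73.3% and 63.6% for Ccl12. For all 3 genes the adult library was the more concentrated. Ccl8 was confined further, since 8 adult cells and 31 young cells held 50% of its UMIs, and the adult cell with 832 of them made up 15.7% of the total. That cell had 10868 UMIs in all, near the median of its class.

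**Figure D2:**
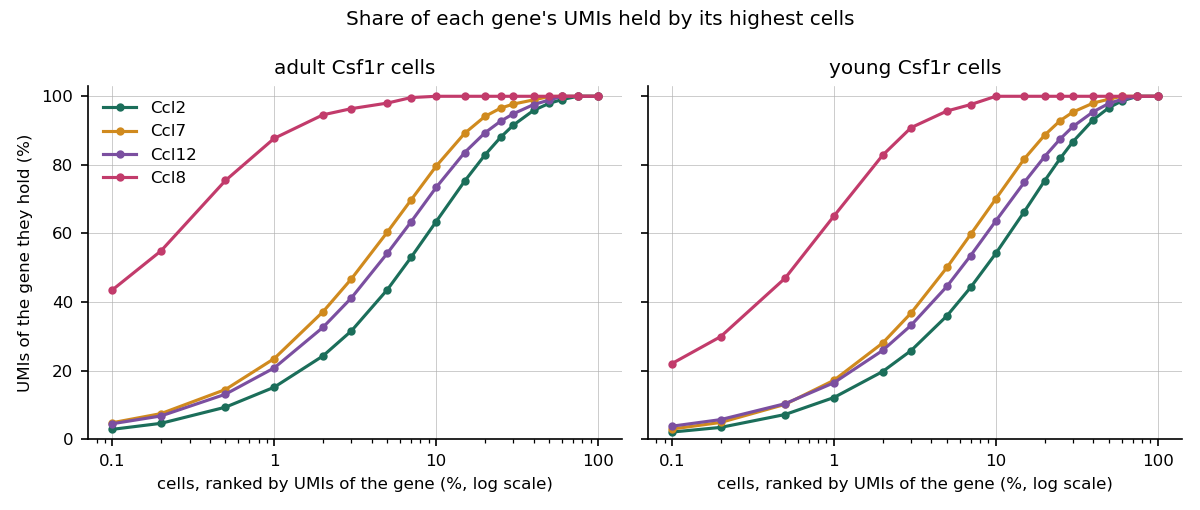
Share of each gene's UMIs (%) held by the Csf1r cells with the most of it, against the share of cells (%, log scale), adult left and young right. The Ccl8 curve is the steepest in both libraries, and at 10% of cells the other 3 stand between 63.4% and 79.5% in adult cells and between 54.1% and 70.1% in young cells.

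Cells with UMIs of 1 member more often had the others too. Of Csf1r cells with Ccl8, 83.1% in adult and 84.7% in young cells also had Ccl2, against 73.9% and 74.2% of those without Ccl8. Across Csf1r cells the Pearson correlation of log(UMIs per 10000 + 1) was 0.70 in adult and 0.65 in young cells between Ccl2 and Ccl7, 0.57 and 0.52 between Ccl2 and Ccl12, and 0.60 and 0.54 between Ccl7 and Ccl12. It lay between 0.09 and 0.16 for the 3 pairs with Ccl8 in both libraries, which at these sparse counts is no finding. These are descriptions over 4265 adult and 5390 young cells, and the cells of a library share its depth and preparation. At 2000 UMIs per cell, Ccl7 was seen in 50.1% of adult cells with Ccl2 and in 11.4% of those without, and in 52.9% and 15.2% in young cells, odds ratios of 7.80 and 6.24. In whole cells those odds ratios were 3.93 and 4.79, so their size and their order between the ages depend on the thinning. The odds ratio for Ccl7 and Ccl12 was 5.27 in adult and 4.39 in young cells, and for Ccl2 and Ccl12 it was 4.55 and 3.96. Thinning moved the odds ratios of all 6 pairs in both libraries. The pairs with Ccl8 had 2.60 to 3.64 in adult cells and 1.498 to 2.39 in young cells.

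Counted per cell, 32.0% of adult and 38.6% of young Csf1r cells had UMIs of exactly 3 of the 4 genes, and 3.80% and 5.70% had all 4. Cells with 3 held 73.3% of the summed UMIs of the 4 genes in the adult library and 70.3% in the young one. Cells with none numbered 11.6% and 9.52%. Of the 10% of cells highest in Ccl2, 64.6% in adult and 55.1% in young cells were also among the 10% highest in Ccl7, and 12.9% and 14.3% among those highest in Ccl8.

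Of 7567 genes with a UMI in at least 5% of Csf1r cells of both libraries, those most like Ccl2 were Ccl7 and Ccl12 themselves. Next came Ly6c2, a surface protein of inflammatory monocytes, with a correlation of 0.37 in adult and 0.31 in young cells, then Fcgr1, a high-affinity IgG receptor (0.35 and 0.28), and Ms4a4c (0.31 and 0.26). Ccl7 and Ccl12 shared their next 2 neighbours, Ch25h, an interferon-induced cholesterol hydroxylase, and Lgals1, a galectin. With Ccl12, Ch25h had 0.36 in adult and 0.44 in young cells, and with Ccl7 it had 0.30 and 0.38. Aif1, an actin-binding protein of macrophages, followed for Ccl12 (0.27 and 0.30) and Ms4a7, a membrane protein of macrophages, for Ccl7 (0.27 and 0.25). Ccl8 was closest to Pf4, a CXC chemokine of platelets and macrophages (0.24 and 0.21), Mrc1, the mannose receptor (0.17 and 0.16), and Lgmn, a lysosomal protease (0.15 and 0.17). The values of Mrc1 and Lgmn were near that of Ccl7 with Ccl8 (0.14 and 0.16), and at these sparse counts are likewise no finding. Ccl7 ranked sixth for Ccl8, while Ccl8 ranked 218th for Ccl2.

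Csf1r cells were next ordered by the summed UMIs of gene lists per 10000 and divided at common edges into up to 5 bins. A bin is a range of a score and not a cell type. Ccl2, Ccl7 and Ccl12 were highest where interferon response genes (Ifit1, Isg15, Irf7, Cxcl10 and 5 others) were highest. Ccl2 had 627 CPM in the lowest and 3232 CPM in the highest bin of adult cells, and 361 and 1744 CPM in young cells. For Ccl7 the lowest and highest bins had 403 and 2395 CPM in adult cells and 344 and 1231 CPM in young cells. For Ccl12 they had 304 and 1886 CPM in adult cells and 397 and 1359 CPM in young cells. Each of the 9 list genes taken alone gave the same direction for these 3 genes in both libraries. Median depth was lower in the highest than in the lowest bin, at 8462 against 11280 UMIs in adult and 8898 against 11331 in young cells. For Ccl8 the adult highest bin, at 203 CPM, held the 1 cell with 832 UMIs, and without it the bin had 57.6 CPM against 76.5 in the lowest. In young cells Ccl8 had 98.4 CPM in the lowest and 145 CPM in the highest bin. That is a ratio of 1.47, and it was 1.15 for the list without Isg15, its gene with the most UMIs.

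The monocyte list, led by Plac8 and Ly6c2, sorted Ccl2 most. Ccl2 had 498 CPM in the lowest and 2760 CPM in the highest bin of adult cells, and 504 and 2028 CPM in young cells. Ccl7 had 478 and 1344 CPM in adult cells and 483 and 985 CPM in young cells. Ccl8 ran the other way in adult cells, with 100 CPM in the lowest and 30.4 in the highest bin. In young cells it had 130 and 86.7 CPM, and without Plac8, the gene with the most UMIs in the list, the order in young cells turned, to 1.17 for the highest over the lowest bin.

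Ccl8 was highest where genes of mature macrophages were highest, and Ccl7 and Ccl12 were higher there too. Across the C1q list (C1qa, C1qb and C1qc, which encode a complement component, with Ms4a7 and Apoe) it had 21.5 CPM in the lowest and 218 CPM in the highest bin of adult cells, and 13.5 and 266 CPM in young cells. Ccl7 had 550 and 1166 CPM in adult cells and 402 and 1131 CPM in young cells, and Ccl12 had 425 and 1023 CPM in adult cells and 422 and 1253 CPM in young cells. Ccl2 had 1535 and 1180 CPM in adult cells and 1015 and 1144 CPM in young cells, so it was lower in the highest bin in adult cells only. Across the resident macrophage list, of which Pf4 gave 76.7% of UMIs in adult and 69.7% in young cells, Ccl8 had 29.2 CPM in the lowest and 478 CPM in the highest of 4 bins in adult cells, and 29.0 and 257 CPM in young cells. Without the highest adult cell the adult highest bin had 383 CPM. Ccl7 had 823 and 1715 CPM along this list in adult cells and 695 and 860 CPM in young cells. Without Pf4 the ratio of highest over lowest bin for Ccl8 was 7.27 in adult and 3.89 in young cells, against 16.3 and 8.88 with it. For Ccl7 it was 1.32 and 1.34 without Pf4, against 2.08 and 1.24 with it.

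**Figure D3:**
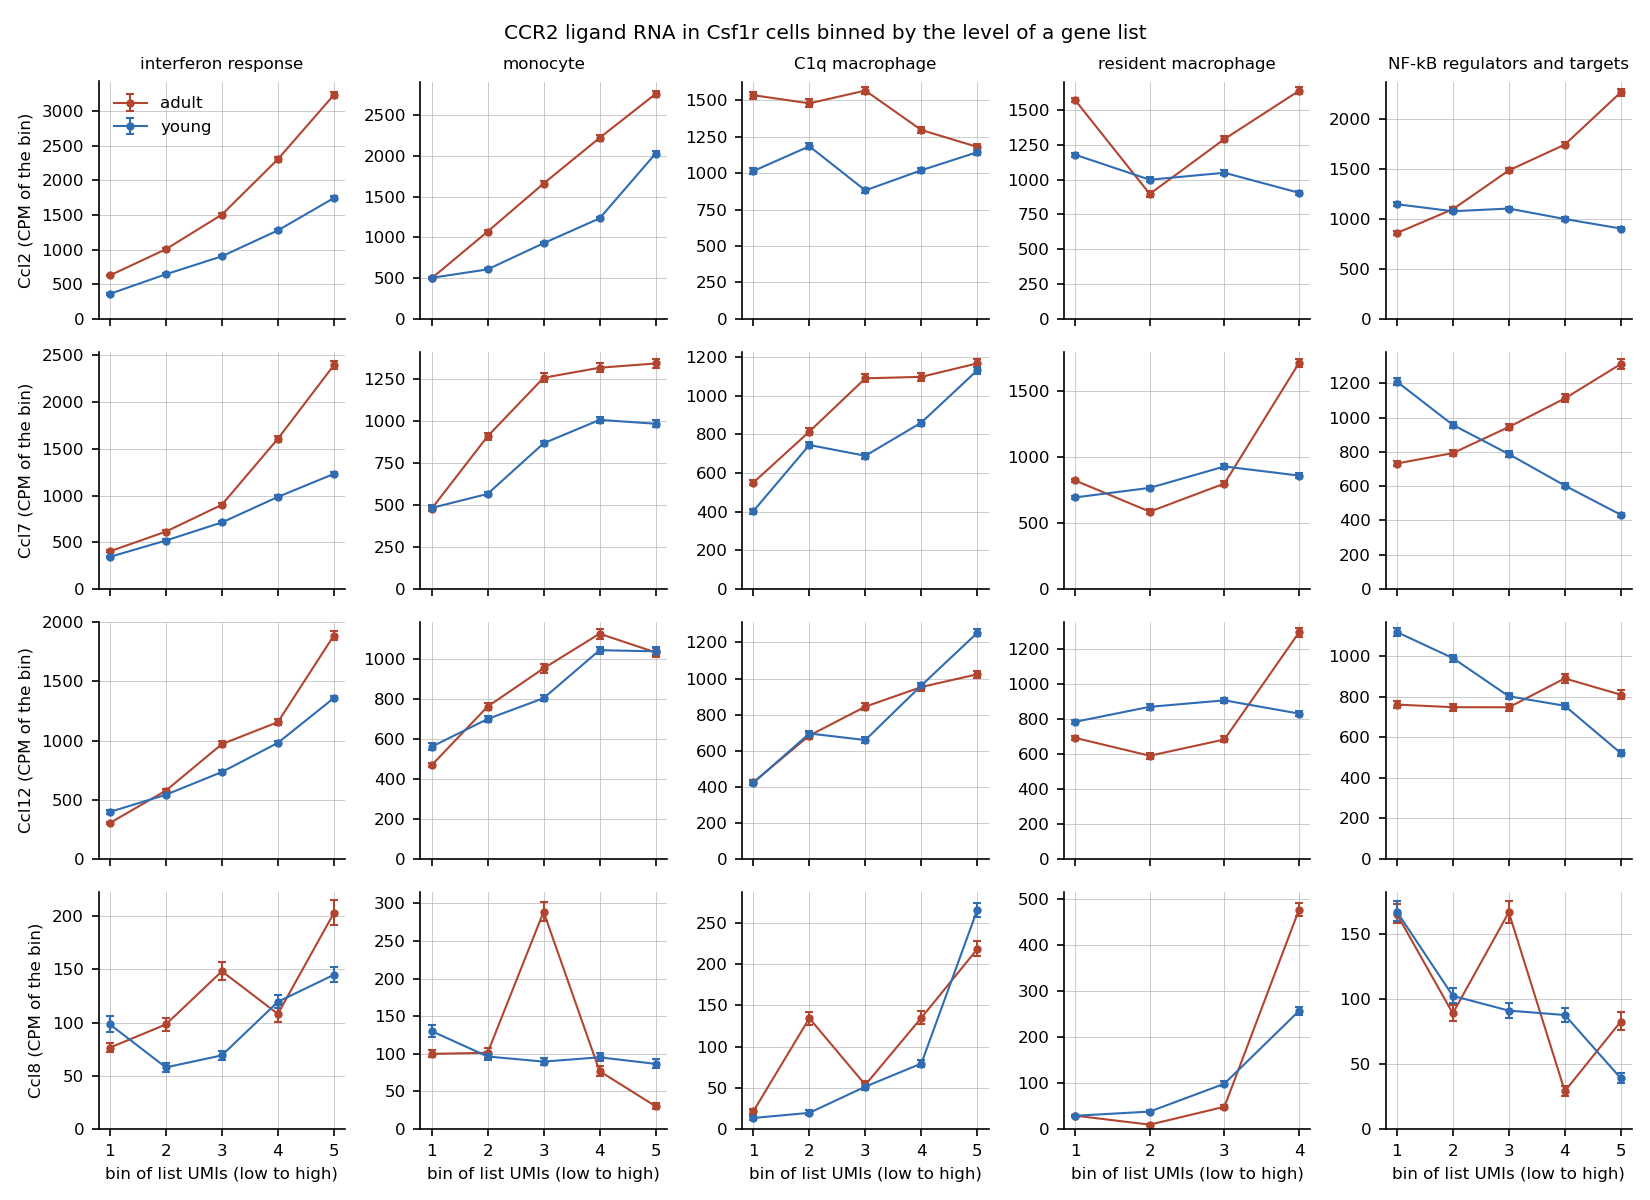
CPM of Ccl2, Ccl7, Ccl12 and Ccl8 (rows) in Csf1r cells binned by the level of 5 gene lists (columns), low to high, adult in red and young in blue, with 95% Poisson intervals. Ccl2, Ccl7 and Ccl12 climb with the interferon list in both libraries, Ccl8 climbs with the C1q and resident lists, and the adult and young lines cross along the NF-kB list.

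The list of NF-kB regulators and targets, led by Cxcl2, Il1b and Nfkbia, ordered the chemokines differently in the libraries. NF-kB is a transcription factor that inflammatory signals activate and that is known to drive Ccl2. Ccl2 had 860 CPM in the lowest and 2269 CPM in the highest bin of adult cells, and 1148 and 905 CPM in young cells. Ccl7 had 732 and 1312 CPM in adult cells and 1210 and 433 CPM in young cells. Ccl12 was near level in adult cells, at 762 and 810 CPM, and had 1119 and 522 CPM in young cells. Taken singly, 9 of 13 list genes in adult cells gave more Ccl7 in cells that were high in the gene and 2 gave less, while in young cells 2 gave more and 11 less. Il1b, the gene of interleukin 1 beta, went with less Ccl7 in both, by ratios of 0.757 in adult and 0.250 in young cells. Tnf, the gene of tumour necrosis factor, went with more Ccl7 in both, at 2.65 and 1.23. Cxcl2, a neutrophil chemokine gene, had 1.87 in adult and 0.585 in young cells, and without it the whole list gave 1.22 and 0.342 for the highest over the lowest bin.

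Within bins the ages could be compared among cells of like list level. Ccl2 was 1.56 to 1.85 times as high in adult as in young cells in all 5 interferon bins, against 1.34 over all Csf1r cells. The lowest interferon bin held 32.3% of adult and 10.2% of young Csf1r cells and the highest 14.6% and 24.2%, and 6 of the 9 list genes were lower in adult cells, such as Irf7 at 484 CPM in adult and 909 CPM in young cells. Ccl7 had ratios between 1.17 and 1.94 in the same bins, and Ccl12 between 0.765 and 1.39. Averaged over the interferon bins the ratios were 1.72 for Ccl2, 1.41 for Ccl7, 1.29 for Ccl8 and 1.12 for Ccl12, the last on the other side of 1 from its value over all cells. Averaged over the resident list bins, each weighing the same, Ccl8 had 0.695, and over the C1q bins 1.74. From the lowest to the highest resident bin the ratios of Ccl8 were 1.01, 0.253, 0.492 and 1.86. The highest bin had the most Ccl8, at 478 CPM in adult and 257 CPM in young cells. Without the highest cell of each library it had 383 and 238 CPM. Adult cells of C1q bin 2 had 134 CPM of Ccl8, and 35.2 CPM without the cell with 832 UMIs, against 19.7 in young cells. That cell also lay in the highest interferon and resident bins, and these averages were not recomputed without it. Along the NF-kB list the ratio of Ccl2 was 0.749 in the lowest and 2.51 in the highest bin, and that of Ccl7 was 0.605 and 3.03.

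**Figure D4:**
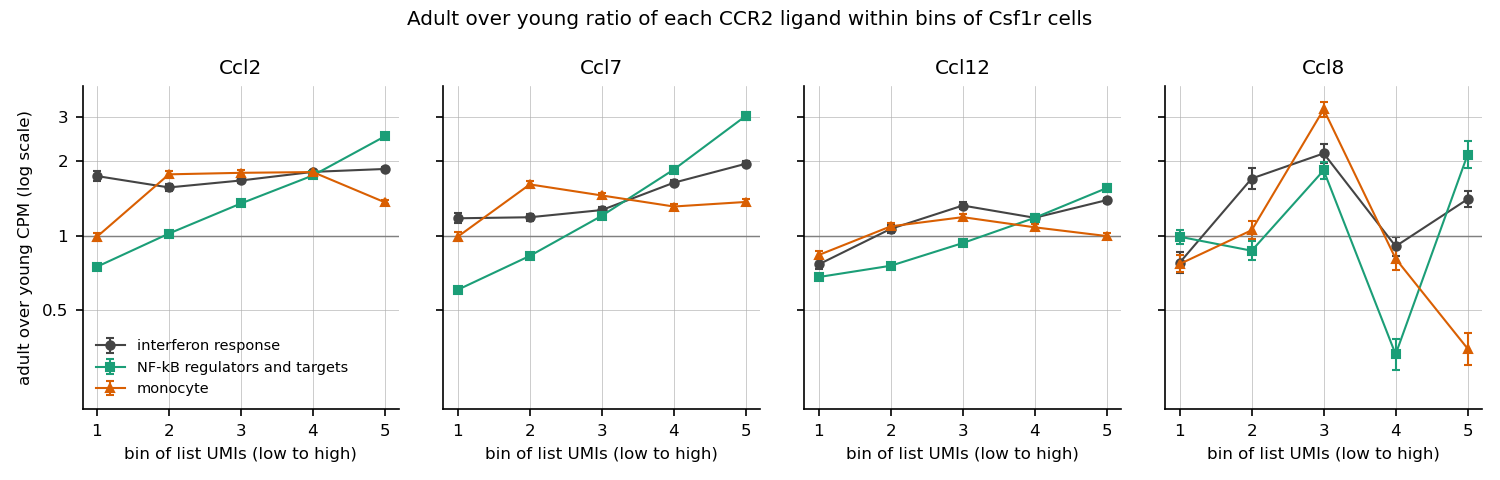
Adult over young ratio of CPM (log scale, line at 1) for Ccl2, Ccl7, Ccl12 and Ccl8 within bins of Csf1r cells by 3 gene lists, with 95% intervals of counting error. Along the NF-kB list Ccl2 runs between 0.749 and 2.51 and Ccl7 between 0.605 and 3.03, and along the interferon list Ccl2 stays between 1.56 and 1.85.

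In mCherry cells Ccl2 was the main member, and Ccl7 came next. In adult mCherry cells Ccl2 had 397 CPM, 3.55-fold lower than in adult Csf1r cells, and in young mCherry cells 402 CPM, 2.61-fold lower than in young Csf1r cells. Ccl7 was 10.9-fold lower in adult and 5.25-fold lower in young mCherry cells, Ccl12 20.2-fold and 12.5-fold lower, and Ccl8 29.6-fold and 12.5-fold lower. All 4 were thus past 1.5-fold, as were 34.9% of the 7584 genes measured in the adult library and 36.4% of the 7680 in the young one, in the same direction. Another 34.7% and 34% were higher in mCherry cells. mCherry cells hold much more RNA, with median UMIs of 31335 in adult and 32751 in young cells. Per cell, Ccl2 had 14.2 UMIs in adult mCherry cells and 15.5 in adult Csf1r cells, and 16.4 in young mCherry cells and 11.5 in young Csf1r cells. Ccl2 made up 75.4% of the UMIs of the 4 genes in adult mCherry cells against 43.3% in adult Csf1r cells, and 63.9% against 37.6% in the young library.

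Macrophage RNA was also present in mCherry cells, of which 174 of 476 adult and 197 of 423 young cells had a Csf1r UMI. As a share of the UMIs per Csf1r cell, 10 macrophage genes stood at 16.8% to 22.6% in adult and 24.6% to 39.8% in young mCherry cells. Ccl12 stood at 16.1% and 29.6% and Ccl8 at 10.98% and 29.6%, in or below those ranges. Ccl7 stood at 29.9% and 70.7% and Ccl2 at 91.8% and 142%, above them. A single adult mCherry cell had 1217 Ccl2 UMIs, 18.0% of the class, and without the highest cell of each library Ccl2 stood at 75.4% and 134%. Among the mCherry cells with 0 Csf1r UMIs the macrophage genes together stood at 5.81% in adult and 6.64% in young cells, Ccl12 at 4.98% and 6.32%, Ccl7 at 15.3% and 20.1%, and Ccl2 at 46.5% and 55.7%. Choosing cells without Csf1r UMIs lowers the macrophage genes by itself, and 1 cell held 13.2% of the adult and 25.4% of the young Ccl2 UMIs of these cells. When mCherry cells were divided into 3 groups by their macrophage UMIs, Ccl2 stood at 8.49%, 49.8% and 220% of the Csf1r level in adult cells, low to high, and at 11.3%, 154% and 261% in young cells. Ccl7 stood at 2.86%, 15.8% and 72.1% in adult cells and at 3.15%, 41.7% and 167% in young cells. The macrophage genes themselves stood at 1.43%, 6.55% and 49.9% in adult cells and at 1.94%, 11.4% and 79.7% in young cells. The groups also differed in depth, with median UMIs of 14954.5, 35709 and 57157 in adult and 14117, 49332 and 57860 in young cells. In CPM, Ccl2 had 76.2, 208 and 621 in adult cells, low to high, and 82.2, 371 and 515 in young cells. Ccl2 and Ccl7 were thus highest in the mCherry cells with the most macrophage RNA. The part of macrophage RNA and of depth in their level was not tested beyond these groups.

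**Figure D5:**
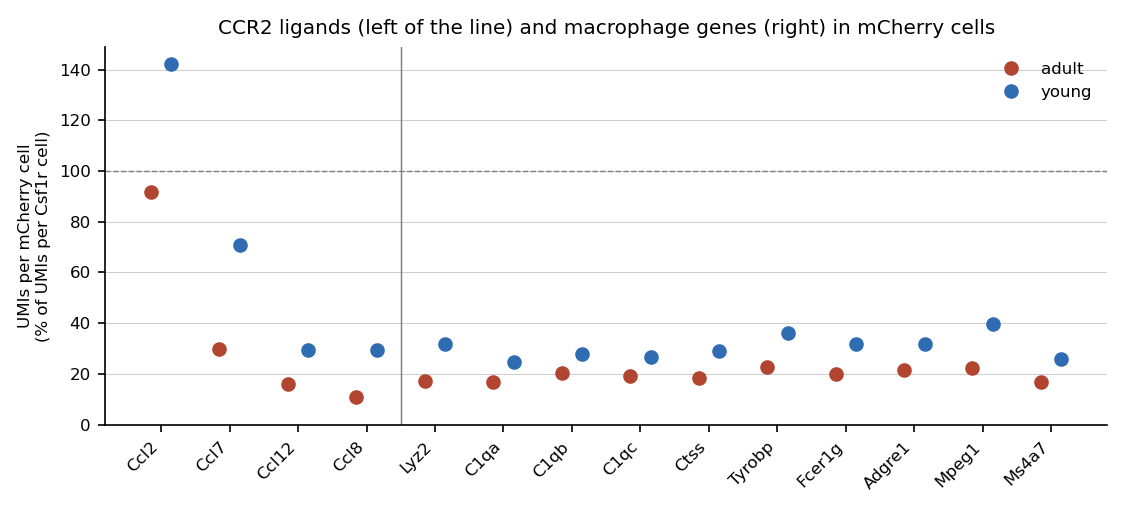
UMIs per mCherry cell as a percentage of the UMIs per Csf1r cell of the same library, for the 4 CCR2 ligands (left of the line) and 10 macrophage genes (right), adult left of young. Ccl2, at 91.8% in adult and 142% in young cells, and Ccl7, at 29.9% and 70.7%, stand above the macrophage genes, and Ccl12 and Ccl8 do not.

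Adult mCherry cells had lower Ccl7 and Ccl12 than young ones, and Ccl2 did not differ beyond the counting error. Ccl7 had 86.6 CPM in adult and 153 CPM in young mCherry cells, 1.76-fold lower in adult (1.65 to 1.88). Ccl12 had 38.8 CPM and 67.2 CPM, 1.73-fold lower (1.57 to 1.91). These 2 were counted as lower, as were 4.29% of 6648 genes, with 0.948% higher, and Ccl8, at 3.81 and 7.78 CPM, was under the 10 CPM needed to be measured. Ccl2 had a ratio of 0.986 (0.954 to 1.02), which was 0.861 (0.830 to 0.892) without the highest cell of each library. The macrophage genes moved the same way, with all 9 measured lower in adult mCherry cells and a median log2 ratio of -0.58, and their part in the Ccl7 and Ccl12 values was not tested. In mCherry cells with 0 Csf1r UMIs, 302 adult and 226 young cells, the ratios were 1.14 for Ccl2 (1.06 to 1.22), 0.909 for Ccl7 (0.794 to 1.04) and 0.747 for Ccl12 (0.582 to 0.960), none of them past 1.5-fold, and Ccl8 had 22 adult and 30 young UMIs.

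Neutrophils had little of any member. Ccl2 had 0.487 UMIs per adult and 0.457 per young neutrophil, and Ccl8 had 2 UMIs in all in each library. A Ccl2 UMI was seen in 29.6% of adult and 21.6% of young neutrophils, at median depths of 1900 and 2131 UMIs. At 2000 UMIs per cell the shares were 26.2% and 16.2%, from the 84 and 68 cells that were deep enough. The thinned share in mCherry cells, 25.2% in adult and 24.2% in young cells, was below the adult neutrophil share and above the young one, and neither expression nor an order is read from it, since CPM ran the other way at 397 in adult mCherry cells and 235 in adult neutrophils. In Csf1r cells the thinned share was higher than in neutrophils in both libraries. Ccl7 was 1.74-fold lower in adult neutrophils, on 40 adult and 47 young UMIs, against 5.89% of 5757 genes lower and 3.06% higher in that class, and 1 young cell held 57.4% of the young UMIs.

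In the T cell class most of the chemokine UMIs sat in cells that also had Csf1r UMIs, 18 of 122 adult and 25 of 65 young cells. In the others Ccl2 had 0.654 UMIs per adult and 0.300 per young cell, and Ccl8 had 1 UMI in each library. Over the whole class Ccl2 was 1.64-fold lower in adult cells, at 223 CPM in adult and 365 CPM in young cells, against 7.52% of 7620 genes lower and 8.73% higher in that class, and 1 young cell held 33.8% of the young UMIs. In T cells with 0 Csf1r UMIs the direction turned, with 120 CPM in adult and 41.4 CPM in young cells, and in those with Csf1r UMIs Ccl2 had 420 and 513 CPM. In 1 adult cell of the class lay 98.0% of its Ccl8 UMIs.

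Receptors of these ligands were measured in the same cells. Ccr2 had 337 CPM in adult and 233 CPM in young Csf1r cells and was detected in 81.4% and 69.8% of them. Ccr1, which also binds Ccl7, had 292 CPM in adult and 328 CPM in young Csf1r cells. Neither passed 1.5-fold between the ages. Ccr3, another receptor of Ccl7, had 15 UMIs in adult and 8 in young Csf1r cells. Ccr1 was highest in neutrophils, at 1896 CPM in adult and 1927 CPM in young cells. Neutrophils hold fewer UMIs, and per cell the difference was small. Ccr1 had 3.93 UMIs per adult neutrophil and 3.21 per adult Csf1r cell, and 4.40 and 3.60 in young cells. Ccr8, the receptor of mouse Ccl8, had 0 UMIs in adult and 2 in young Csf1r cells, and 2 in adult and 7 in young T cells. The decoy receptors Ackr1, Ackr2 and Ackr4, which take up CC chemokines without signalling, had at most 2 UMIs in any class.

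Of 9 other CC chemokines, 7 were measured in Csf1r cells, with a median log2 ratio of -0.01. The 2 that were higher in adult cells were Ccl24, a ligand of Ccr3, at 1064 CPM in adult and 35.5 CPM in young cells, and Ccl22, a ligand of Ccr4, at 14.5 and 9.50 CPM. Ccl4, a chemokine of activated macrophages, had 965 and 1249 CPM, Ccl5, which binds Ccr1, had 832 and 1239 CPM, and Ccl6 had 581 and 600 CPM. Outside that list, Ccl17, a ligand of Ccr4 counted among the interleukin 4 response genes, was also higher in adult cells, at 74.7 CPM in adult and 9.69 CPM in young cells. Ccl11, the neighbour between Ccl7 and Ccl12, had 23 UMIs in adult and 3 in young Csf1r cells.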

How the data were processed

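The 2 single-cell libraries used the 3′ v2 chemistry of 10x Genomics, according to the labels. The deposited values are raw UMI counts per gene and barcode, which the authors made with Cell Ranger 3.0.2 on mm10, per the submitters' processing notes. The annotation used for counting is not given in the sources used here. The members and gene lists were chosen with earlier results of these data known.

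Barcodes with fewer than 200 genes or over 10% mitochondrial UMIs were dropped, 505 in the adult and 468 in the young library. No doublet caller was run, and leaving out the 6% of cells with the most UMIs was an alternative. A cell may meet more than 1 class rule. UMIs were summed per library and class and given as CPM with exact Poisson intervals. Ratios have conditional binomial (Clopper-Pearson) intervals and shares exact binomial intervals, all at 95%. No p-value was computed, because the cells of 1 library do not replicate an age. The genes named are the 4 members, for each the 3 non-member genes with the highest correlation in the library where it is lower, and leading members of each list, and others were named after their values were seen. Tools were Python 3.11.15, numpy 2.4.6, scipy 1.17.1, pandas 2.3.3, biopython 1.88 and matplotlib 3.10.9. Some members of the gene lists are not reported here. The ratio calls and the correlations were tested on simulated data. The ratio simulation drew the total of each gene in a class as a Poisson count, which the intervals also assume. It therefore does not bear on genes whose UMIs sit in few cells, as those of the members do. With 31054 features and 46922336 adult and 59137763 young UMIs in the Csf1r class, 3 counts, taken as a floor, are 0.0639 and 0.0507 CPM. The 95% interval of a count of 0 reaches 0.0786 CPM in adult and 0.0624 CPM in young Csf1r cells.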

Additional observations from a re-analysis of the deposited data

Results flagged for a closer look

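Ccl7 ran in opposite directions along the NF-kB list in the 2 libraries, with a highest over lowest bin ratio of 1.79 in adult and 0.358 in young Csf1r cells. The adult over young ratio of Ccl7 was 1.18 in Csf1r cells and 0.568 in mCherry cells, on opposite sides of 1. For Ccl8 the same ratios were 1.16 in Csf1r cells and 0.490 in mCherry cells, the last on 65 adult and 134 young UMIs and 0.649 without the highest cell of each library. These differences were not tested, since each age is 1 library.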

How the results depend on the processing

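The 4 adult over young ratios in Csf1r cells were recomputed under 19 alternatives each, and 9 for Ccl2, 7 for Ccl7, 5 for Ccl8 and 8 for Ccl12 stayed within the counting interval. Ccl2 ranged between 1.28 and 1.72 and Ccl7 between 1.12 and 1.41, above 1 under all 19. Ccl8 ranged between 0.695 and 1.74, under 1 in 5, and Ccl12 between 0.870 and 1.12, over 1 in 3. In the order Ccl2, Ccl7, Ccl8, Ccl12, the ratios were 1.40, 1.23, 1.23 and 0.962 in cells with 3 or more Csf1r UMIs, and 1.36, 1.21, 1.23 and 0.960 in cells with 0 mCherry UMIs. With each cell weighing the same they were 1.43, 1.24, 1.30 and 0.975, and at 2000 UMIs per cell 1.43, 1.24, 1.22 and 0.967. Within bins they were 1.72, 1.41, 1.29 and 1.12 for the interferon list, 1.502, 1.33, 0.940 and 1.03 for the monocyte list, 1.28, 1.12, 0.695 and 0.916 for the resident list, and 1.32, 1.199, 0.910 and 0.9498 for the interleukin 4 list. Other bins gave Ccl7 1.25, Ccl8 1.74 and Ccl12 1.01 for the C1q list, Ccl7 1.27, Ccl8 1.02 and Ccl12 0.974 for the NF-kB list, Ccl8 0.964 for the immediate early list, Ccl2 1.30, Ccl8 1.02 and Ccl12 0.870 for the cell cycle list, and Ccl7 1.15 and Ccl8 0.980 for the hypoxia list. Median-of-ratios scaling gave 1.36 for Ccl2 and 1.19 for Ccl7. Leaving out the highest cell gave 1.02 for Ccl8. The ratios past 1.5-fold were Ccl2 in the interferon and monocyte bins and Ccl8 in the C1q bins. The Ccl8 value in the C1q bins leaned on the 1 adult cell with 832 UMIs and was not recomputed without it. The cause of these moves was not tested.

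For the highest over lowest bin, leaving out the leading gene reversed 2 of 72 values, Ccl8 on the interferon list in adult cells (0.821) and on the monocyte list in young cells (1.17). Leaving out the highest cell reversed 1 of 72, Ccl8 on the interferon list in adult cells (0.753). Shares of cells with a UMI were the same within their intervals in 32 of 32 cases over every barcode and 32 of 32 without the shared barcodes, while 5 of 32 moved with cells of exactly 1 class and 24 of 32 when thinned to 2000 UMIs. Thinning moved 12 of 12 odds ratios. Leaving out the highest cell, a list's leading gene or the mCherry cells with Csf1r UMIs was chosen after seeing the data. No paired analysis was possible because each age is 1 library.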

Other observations

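Cells that met no class rule and had 0 Csf1r UMIs numbered 642 in the adult and 985 in the young library, with median depths of 4757 and 5037 UMIs. They had 1994 CPM of Ccl2 in adult and 1323 CPM in young cells, 903 and 854 CPM of Ccl7, and 537 and 802 CPM of Ccl12. Ccl8 had 58.3 CPM in adult and 234 CPM in young cells, and 1 cell held 35.3% of the adult and 1 cell 22.0% of the young UMIs. Over all cells of no class, including those with Csf1r and 2 to 9 mCherry UMIs, all 8 listed macrophage and monocyte markers stood at 10 CPM or more in both libraries. The 7 dendritic cell markers summed to 328 CPM in adult and 172 CPM in young cells there, against 19.3 and 18.0 in Csf1r cells. The 5 fibroblast markers summed to 163 CPM in adult and 11.3 CPM in young cells of no class, against 7.14 and 1.56 in Csf1r cells. In Csf1r-positive cells with 2 to 9 mCherry UMIs, which no class holds, Ccl2 had 1190 CPM in 111 adult and 1195 CPM in 151 young cells.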
